A study of Mus musculus with 3 samples.

Results

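The enzymes that carry glucose to lactate, pass pyruvate to the mitochondrion or divert glucose-6-phosphate into the pentose phosphate pathway were described in adult lung endothelial cells (ECs). The set was named gene by gene from the roles of the enzymes. It holds 36 of the 24346 gene symbols of the deposited table, and all 36 have a row. The cells came from wild type male C57BL/6J mice aged 6 to 8 weeks and were sorted fresh from lung, without culture. An antibody to VE-cadherin was injected before harvest and the cell suspension was stained for CD31, CD45 and podoplanin. The study describes the endothelial fraction of kidney as negative for CD45 and podoplanin, and the gate for lung is not given in the sources used here. The 3 libraries carry the numbers S38, S44 and S52 in the submitters' titles. The libraries form 1 group, so no difference between conditions was tested and no p-value is given. The labels do not say whether the libraries came from separate mice, so the SDs below may be technical. Values are FPKM, that is, sequenced fragments corrected for gene length and for how many fragments were mapped.

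Glycolysis splits glucose into pyruvate in the cytosol and yields a small amount of ATP. Endothelial cells are known for drawing most of their ATP from it despite their contact with oxygen in blood, with lactate as the main product. Hexokinase, phosphofructokinase-1 and pyruvate kinase catalyse the irreversible steps. The pyruvate dehydrogenase (PDH) complex opens the mitochondrial route for pyruvate, and the PDH kinases close it. The pentose phosphate pathway supplies NADPH and ribose.

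The 3 libraries were alike in depth but not in the markers of other lung cells. A depth of 34100000 to 38900000 fragments was estimated from the smallest values of genes with a single annotated transcript. A transcript of 2000 bp at 1 FPKM then received 62.5 to 71.5 fragments. The summed level of 10 endothelial markers was 6276 to 7063 FPKM, and all 10 were above 1 FPKM in every library. *Cldn5*, the highest of them on average, was at 1486 FPKM in S38, 1732 in S44 and 1029 in S52. Markers of platelets and of epithelium were far lower in S52 than in the other libraries, and the values of each library are therefore given throughout.

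Glycolytic transcripts were readily found in the lung EC libraries. For hexokinase, aldolase, phosphoglycerate mutase, enolase, pyruvate kinase and lactate dehydrogenase, a single member carried most of the signal of the step. The signal of phosphofructokinase-1 and of the PDH kinases was spread over several members. Together the 36 members held 0.159% of the summed FPKM of all genes in S38, 0.117% in S44 and 0.126% in S52. The members are 36 of 24346 symbols, a share of about that size, so these percentages alone do not mark a high level. The members summed to 1830, 1883 and 1791 FPKM, and the sum of all genes varied more. Of the 36 members, 29 had a mean of at least 1 FPKM, called detected here. That is 80.6%, against 48.3% of all genes in the table. Of the 36, 20 reached 10 FPKM, which 25.7% of all genes did, and 6 reached 100 FPKM, which 3.64% of all genes did. Those 6 were *Aldoa*, *Gapdh*, *Pkm*, *Taldo1*, *Ldha* and *Gpi1*. The median over all 36 members was 18.6 FPKM, with an SD of 1.77 for this median over the 3 libraries. The 7 members below 1 FPKM were *Pgam2*, *Hk2*, *Pfkfb1*, *Eno2*, *Aldoc*, *Hk3* and *Pklr*. Each of them has a counterpart in the same step at 10 FPKM or above. *Pgam2* lay just under the limit at a mean of 0.985 FPKM, and the lowest detected member, *Pdk4*, was at 2.50 FPKM.

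**Figure D1:**
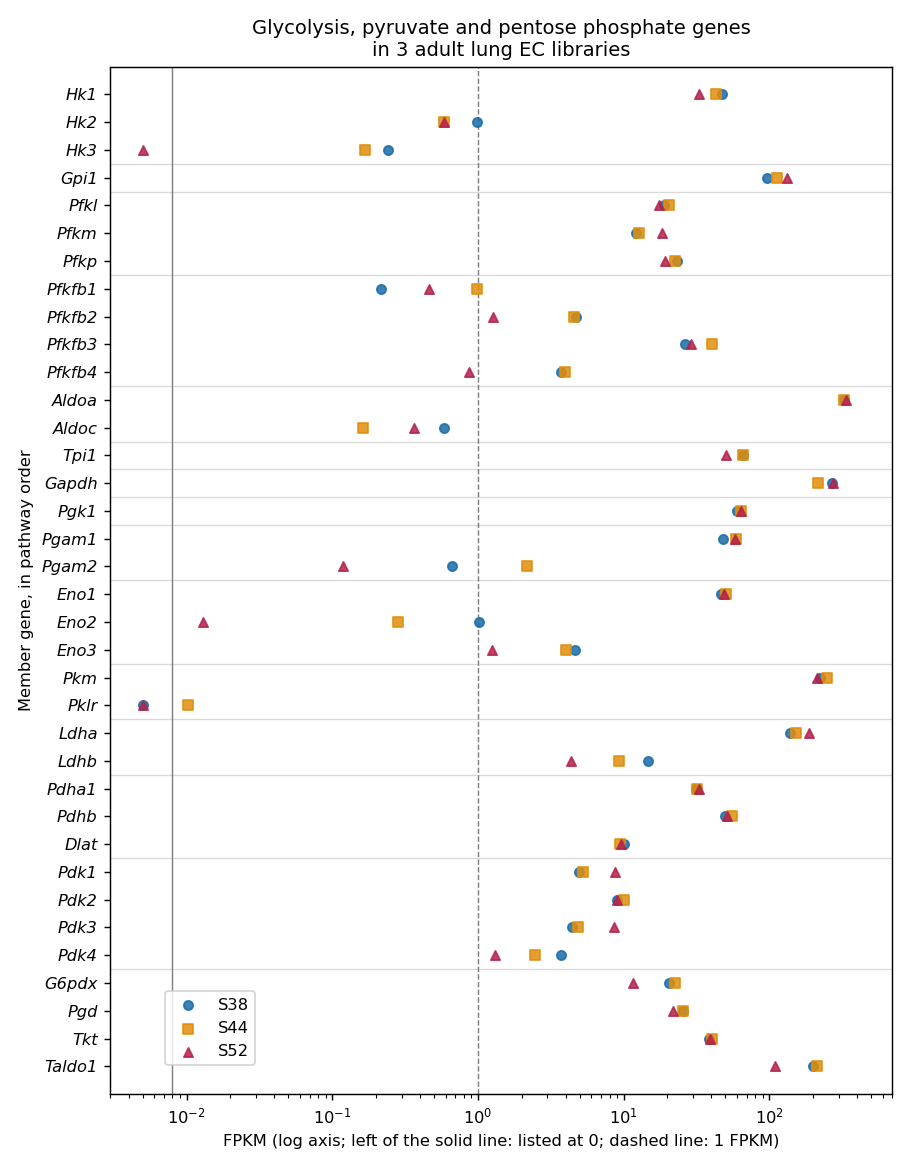
FPKM of the 36 members on a log axis, in pathway order, with 1 symbol per library (circle S38, square S44, triangle S52). Grey lines separate the steps, points left of the solid line are listed at 0, and the 29 members detected lie on average at or right of the dashed line at 1 FPKM.

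When the members were placed in order of mean level, few neighbours were apart. Of the 35 neighbouring pairs, 8 had ranges over the 3 libraries that did not overlap. *Aldoa* stood alone at the top, since its lowest library, at 323 FPKM, was above the highest of *Gapdh*, at 272 FPKM. *Gapdh* and *Pkm* overlapped, and so did *Taldo1* and *Ldha*. *Pkm* lay above *Taldo1*, *Ldha* above *Gpi1* and *Gpi1* above *Pgk1* without overlap. Between *Pgk1* and *Tkt*, from 62.9 down to 39.5 FPKM, each neighbour overlapped the next.

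The steps of glycolysis were not at equal level. The summed FPKM of the members of each step was highest for aldolase, at 328 ± 5.89 FPKM (SD, n = 3 libraries), followed by glyceraldehyde-3-phosphate dehydrogenase at 254 ± 31.2, pyruvate kinase at 228 ± 17.7 and lactate dehydrogenase at 169 ± 19.7 FPKM. It was lowest for hexokinase, the entry step, at 41.9 ± 7.73 FPKM. Aldolase exceeded hexokinase by 6.66-fold in S38, 7.48-fold in S44 and 10.0-fold in S52. Phosphofructokinase-1, triosephosphate isomerase, phosphoglycerate kinase, phosphoglycerate mutase and enolase lay between 52.6 and 62.9 FPKM. The 11 steps from hexokinase to lactate dehydrogenase, without the PFKFB regulators, took 77.6% of the summed FPKM of all members, and 75.7% to 78.8% with a library left out.

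**Figure D2:**
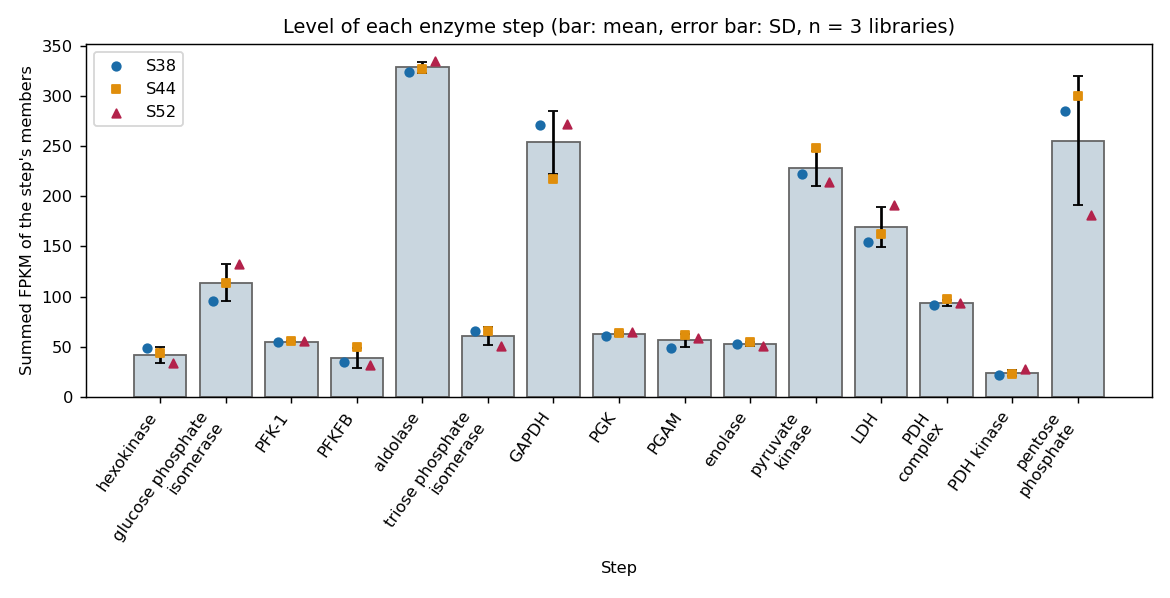
Summed FPKM of the members of each of the 15 steps or groups. Bars are means with the SD over 3 libraries and the symbols are the libraries; aldolase, glyceraldehyde-3-phosphate dehydrogenase (GAPDH), pyruvate kinase and lactate dehydrogenase (LDH) stand above the other glycolytic steps, and the pentose phosphate bar is pulled down by S52 at 181 FPKM.

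Several of these levels rest on reads that other genes could also have produced. The read length was 51 bases, and the longest annotated transcript of each member was searched for windows of that length that also occur in transcripts of other genes. For *Gapdh*, 82.4% of the windows did so, and the shares were 71.9% for *Eno1*, 67.9% for *Pgk1*, 41.4% for *Pgam1* and 33.7% for *Pkm*. For *Aldoa* the share was 12.9% and for *Ldha* 15.9%. None of the other genes that share windows with *Pgk1*, *Pgam1* or *Pkm* has a row in the table. How such reads were assigned is not given in the sources used here, so the levels of these genes are uncertain by an amount that was not tested. The share was also 29.8% for *Pdhb*, 25.1% for *Pfkfb2* and 24.7% for *Gpi1*, and the same holds for them.

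Hexokinase, which traps glucose in the cell as glucose-6-phosphate, was present almost entirely as *Hk1*, the isozyme of most tissues. *Hk1* (chromosome 10, 62268855 to 62379908, minus strand, GRCm38) was at 47.3 FPKM in S38, 42.9 in S44 and 32.8 in S52. It made up 98.0% ± 0.463 of hexokinase FPKM (SD, n = 3). *Hk2*, the inducible isozyme of muscle and fat, was at 0.993, 0.582 and 0.587 FPKM in the same order, and the range of *Hk1* lay far above it. *Hk3*, an isozyme of leukocytes, was at 0.240 FPKM in S38 and 0.168 in S44 and was listed at 0 in S52, where 3 fragments would give 0.0289 FPKM. *Gpi1*, which turns glucose-6-phosphate into fructose-6-phosphate, was at 95.6 FPKM in S38, 114 in S44 and 133 in S52.

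Phosphofructokinase-1, the committed step of glycolysis, was shared among all 3 subunit genes. *Pfkp*, the platelet-type subunit, was at 23.1 FPKM in S38, 22.4 in S44 and 19.3 in S52. *Pfkl*, the liver-type subunit, was at 18.9, 20.6 and 17.5 FPKM. *Pfkp* was higher than *Pfkl* in each library, but by only 1.14-fold on average, and their ranges overlapped. *Pfkm*, the muscle-type subunit, was at 12.2 FPKM in S38 and 12.8 in S44, below *Pfkl*, and at 18.4 in S52, above it. Its share of the step was 22.8% without S52 and 33.3% in S52. The step as a whole was steadier than its parts, at 54.3, 55.8 and 55.2 FPKM. For *Pfkp*, 17.0% of the read-length windows also occur in a transcript of *Pitrm1*.

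The PFKFB enzymes make and break fructose-2,6-bisphosphate, the strongest activator of phosphofructokinase-1. *Pfkfb3*, the member with the highest kinase activity and a known driver of vessel sprouting, was at 26.5 FPKM in S38, 40.2 in S44 and 29.0 in S52. It took 82.7% ± 8.36 of PFKFB FPKM (SD, n = 3). The other members were lower in every library. *Pfkfb2*, the heart isozyme, was at 4.74 and 4.53 FPKM in S38 and S44 and at 1.26 in S52. *Pfkfb4*, first known from testis, was at 3.70 and 3.98 FPKM in S38 and S44 and at 0.871 in S52. Both were thus steady in S38 and S44 and lower in S52, while *Pfkfb3* was not. The share of *Pfkfb3* was 91.8% in S52 and 78.1% over the other libraries. *Pfkfb1*, the liver and muscle isozyme, stayed under 1 FPKM, at 0.216, 0.989 and 0.465.

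The lower part of glycolysis, from aldolase onward, handles the triose phosphates and makes ATP. *Aldoa* (chromosome 7, 126795234 to 126800751, minus strand), the aldolase of muscle and most other tissues, was the most abundant and among the steadiest members, at 323 FPKM in S38, 326 in S44 and 335 in S52. It ranks 319 among all 24346 genes. *Aldoc*, the brain isozyme, was at 0.585, 0.162 and 0.361 FPKM, so *Aldoa* was 99.9% of the step. *Tpi1*, which interconverts the triose phosphates, was at 65.6 FPKM in S38 and S44 and at 50.5 in S52. *Gapdh*, the oxidizing step, was at 271, 218 and 272 FPKM. *Pgk1*, which makes the first ATP, varied little at 60.4, 64.2 and 64.2 FPKM.

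Phosphoglycerate mutase and enolase were dominated by their widely expressed isozymes. *Pgam1* was at 47.9 FPKM in S38, 59.2 in S44 and 58.6 in S52. The muscle isozyme *Pgam2* was at 0.667 and 2.17 FPKM in S38 and S44 and at 0.118 in S52, which corresponds to an estimated 2.7 fragments. *Eno1* was at 46.7, 50.7 and 49.1 FPKM. *Eno3*, the muscle enolase, was at 4.63 FPKM in S38, 4.04 in S44 and 1.24 in S52, and *Eno2*, the neuronal enolase, was at 1.02, 0.281 and 0.0129 FPKM. *Eno1* therefore took 89.2% of enolase FPKM in S38, 92.2% in S44 and 97.5% in S52. *Eno1b*, a copy of *Eno1* that holds 70.3% of its windows, was listed at 2.94 ± 0.341 FPKM (SD, n = 3), and reads may be split between them.

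*Pkm* (chromosome 9, 59656368 to 59679375, plus strand), which encodes the M1 and M2 forms of pyruvate kinase, was at 222 FPKM in S38, 248 in S44 and 214 in S52. The table has 1 value per gene and does not separate the spliced forms. *Pklr*, the pyruvate kinase of liver and red cells, was listed at 0 in S38 and S52 and at 0.0102 FPKM in S44, about 1.09 fragments. Pyruvate kinase exceeded enolase by 4.24-fold, 4.50-fold and 4.24-fold in S38, S44 and S52.

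Lactate dehydrogenase is a tetramer of A subunits, which favour lactate formation, and B subunits, which favour its oxidation. *Ldha* was at 139 FPKM in S38, 153 in S44 and 187 in S52. *Ldhb* was at 14.8, 9.26 and 4.37 FPKM. The A gene was far above the B gene in each library, and the libraries ran in opposite order for the 2 genes. *Ldha* thus exceeded *Ldhb* by 9.42-fold in S38, by 16.5-fold in S44 and by 42.9-fold in S52. *Ldha* made up 94.1% ± 3.66 of the step (SD, n = 3) and 92.3% without S52. For *Ldhb*, 26.3% of the read-length windows also occur in the transcript of *Gm5514*.

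The sequence before an annotated start of each of these genes is shown because they are a pair of isozymes whose levels ran in opposite order. Each run is the 250 bases upstream of a RefSeq start (GRCm38.p6), 5′ to 3′ on the strand of the gene. Capitals mark ACGTG or GCGTG on either strand, the core letters of the hypoxia response element bound by HIF factors. The *Ldha* window is chr7:46845554-46845803 on the plus strand, 1 of 2 annotated, and the *Ldhb* window is chr6:142507958-142508207 on the minus strand. This *Ldha* window lies within the annotated gene, which begins at 46841475 in GENCODE M21.
Ldha: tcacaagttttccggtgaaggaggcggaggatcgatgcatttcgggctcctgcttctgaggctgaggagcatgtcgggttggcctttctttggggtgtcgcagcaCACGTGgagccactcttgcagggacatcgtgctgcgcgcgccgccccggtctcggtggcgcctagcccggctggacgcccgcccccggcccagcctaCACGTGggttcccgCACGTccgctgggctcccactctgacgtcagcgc
Ldhb: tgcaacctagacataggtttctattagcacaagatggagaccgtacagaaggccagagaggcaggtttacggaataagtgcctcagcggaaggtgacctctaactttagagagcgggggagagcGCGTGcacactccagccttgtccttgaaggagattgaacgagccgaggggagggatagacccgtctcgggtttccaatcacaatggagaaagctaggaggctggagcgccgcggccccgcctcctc
The *Ldha* window holds 5 such matches, counting each strand of its 2 CACGTG palindromes, and 25 CpG dinucleotides. The *Ldhb* window holds 1 match and 14 CpG.

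Over all 36 members, 40 of 57 upstream windows (70.2%) held at least 1 of the core letters, against 38.6% of 32851 windows of the same length for all genes. The letters contain a CpG, and the members' windows were richer in CpG, with a median of 13 against 6. A match is a description of letters and not of binding. The windows of *Aldoa*, *Eno1*, *Pgk1*, *Gapdh* and *Pfkfb3* each held a match in at least 1 of their windows, and those of *Gpi1*, *Tpi1*, *Pklr*, *Pgam2*, *Eno2* and *Dlat* held none. The hypoxia factors themselves were at 22.2 ± 2.07 FPKM for *Hif1a* and 752 ± 91.9 FPKM for *Epas1*, which encodes HIF-2α (SD, n = 3).

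The PDH complex, which turns pyruvate into acetyl-CoA, was steady. *Pdha1*, the regulated subunit, was at 31.2 FPKM in S38, 32.0 in S44 and 33.0 in S52. *Pdhb*, its partner in the same enzyme, was at 50.0, 55.7 and 50.9 FPKM, and *Dlat*, the acetyl transferase, at 10.0, 9.39 and 9.60 FPKM. The highest library exceeded the lowest by at most 1.11-fold for these 3 genes. Lactate dehydrogenase exceeded the sum of the 3 subunits by 1.69-fold in S38, 1.67-fold in S44 and 2.05-fold in S52. That sum leaves out *Dld* and *Pdhx*, other genes of the complex, at means of 27.7 and 5.95 FPKM. The ratio depends on which subunits are summed and does not compare the routes of pyruvate.

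The PDH kinases, which switch the complex off by phosphorylation, summed to 24.1 ± 3.06 FPKM (SD, n = 3) and did not all vary alike. *Pdk2*, the most widespread of them, was the highest in mean and steady, at 8.95 FPKM in S38, 10.1 in S44 and 9.04 in S52. *Pdk1*, a known hypoxia target, was at 4.93, 5.25 and 8.69 FPKM, and *Pdk3* was at 4.40, 4.88 and 8.53 FPKM. Both were close in S38 and S44 and higher in S52. *Pdk4*, induced by fasting and glucocorticoids, ran the other way at 3.70, 2.47 and 1.32 FPKM. The 4 genes took 22.4%, 40.7%, 20.0% and 16.9% of PDH kinase FPKM in S38, in the order *Pdk1* to *Pdk4*, and 31.5%, 32.8%, 30.9% and 4.78% in S52.

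The windows before the starts of *Pdk3* and *Pdk4* are shown as another pair that ran in opposite order, with capitals as above. They are chrX:93832151-93832400 and chr6:5496279-5496528, both on the minus strand.
Pdk3: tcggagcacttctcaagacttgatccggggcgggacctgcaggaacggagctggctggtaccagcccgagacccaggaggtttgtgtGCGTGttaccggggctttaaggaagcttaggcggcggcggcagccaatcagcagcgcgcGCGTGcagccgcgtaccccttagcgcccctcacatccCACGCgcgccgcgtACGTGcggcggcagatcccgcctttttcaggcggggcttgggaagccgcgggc
Pdk4: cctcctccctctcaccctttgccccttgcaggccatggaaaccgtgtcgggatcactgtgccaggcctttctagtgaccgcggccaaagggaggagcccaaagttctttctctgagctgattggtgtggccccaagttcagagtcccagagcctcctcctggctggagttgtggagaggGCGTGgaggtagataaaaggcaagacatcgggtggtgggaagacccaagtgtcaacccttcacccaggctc
The *Pdk3* window holds 4 matches and 29 CpG, and the *Pdk4* window holds 1 match and 6 CpG. *Pdk1*, also higher in S52, had at most 1 match in any window, and *Pfkfb2*, lower in S52, had up to 4. Whether the matches relate to the levels was not tested.

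**Figure D3:**
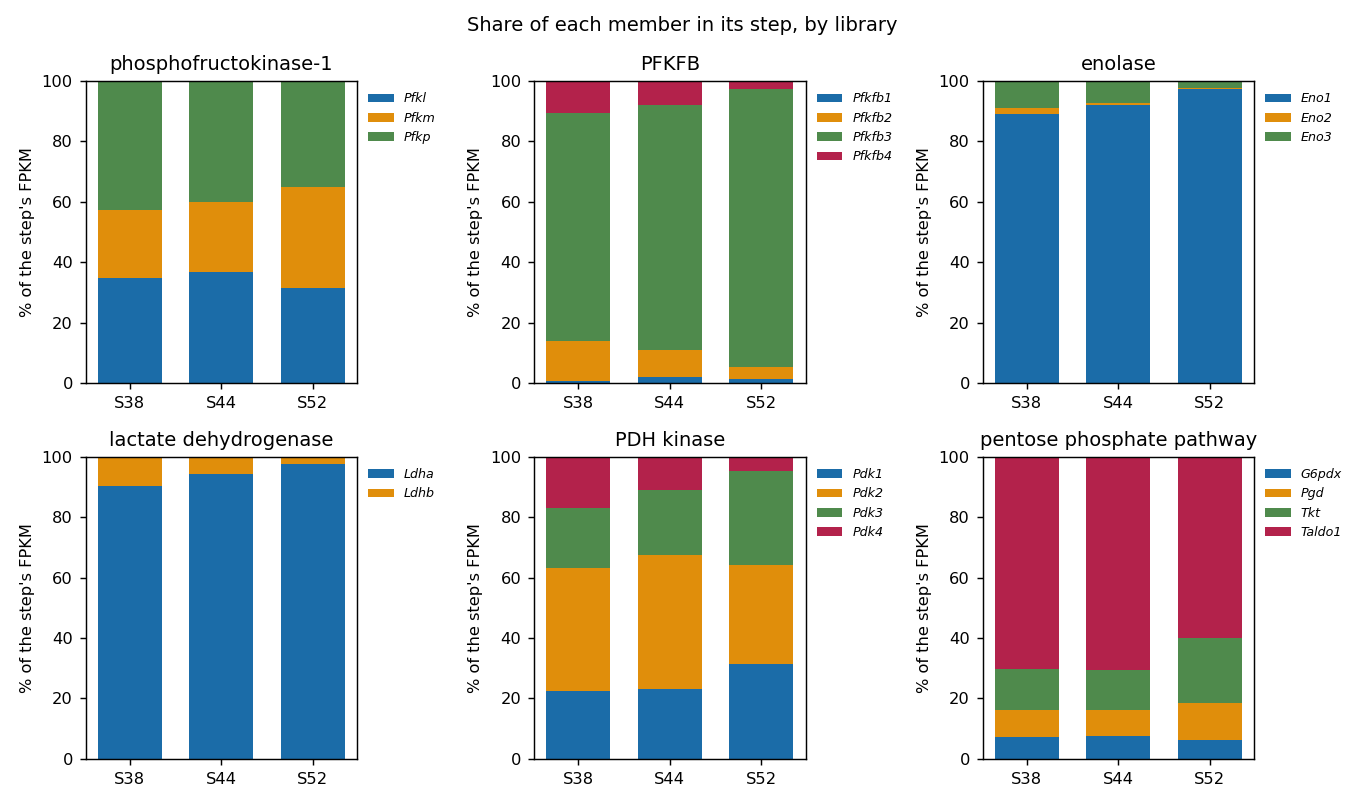
Share of each member in the FPKM of its step, as stacked bars from 0 to 100% for each library, for 6 steps. Among the phosphofructokinase-1 subunits, *Pfkm* takes the smallest share in S38 and S44 (22.5% and 23.0%), and the subunits are of similar size in S52. *Pfkfb3*, *Eno1* and *Ldha* take a larger share in S52 (91.8%, 97.5% and 97.7%), and *Pdk4* and *Taldo1* take a smaller one (4.78% and 59.9%).

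The highest pentose phosphate transcripts belonged to the non-oxidative branch, which links the pathway back to glycolysis. *Taldo1* (chromosome 7, 141392199 to 141402968, plus strand), the transaldolase gene, was at 200.3 FPKM in S38, 212 in S44 and 109 in S52. *Tkt*, the transketolase gene, was at 38.8, 40.2 and 39.4 FPKM and did not share this difference. The ratio of *Taldo1* to *Tkt* was 5.17, 5.27 and 2.75. In the oxidative branch, *G6pdx*, the entry enzyme that makes NADPH, was at 20.5 and 22.5 FPKM in S38 and S44 and at 11.6 in S52. *Pgd*, the next NADPH source, was at 25.4, 25.7 and 21.8 FPKM. *Taldo1* and *G6pdx* were thus lower in S52 by a similar factor, 0.542 and 0.565 of S38, while *Tkt* was not.

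Differences between the libraries were above 2-fold in a minority of the members. Among the 29 detected, the median ratio of the highest to the lowest library was 1.30, and among all 11770 detected genes it was 1.40. The ratio was above 2 for 5 of the 29 (17.2%), against 20.1% of all detected genes, a share near the background. The 5 were *Pfkfb4* at 4.57, *Pfkfb2* at 3.76, *Eno3* at 3.72, *Ldhb* at 3.39 and *Pdk4* at 2.81. Just under the limit were *Taldo1* at 1.95, *G6pdx* at 1.95 and *Pdk3* at 1.94. With S52 left out, 0 of the 29 were above 2, against 4.94% of all detected genes. *Pgam2* reaches a mean of 1 FPKM over S38 and S44 alone and was then above 2. *Pfkfb1*, *Aldoc* and *Eno2* also differed by over 2-fold between S38 and S44, at means below 1 FPKM.

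All 5 members above 2 were lowest in S52, as were 64.9% of all detected genes above 2. Among the 29 detected members, 13 were lowest in S52 (44.8%), against 46.3% of all detected genes, and 9 were highest there. S52 was under 1/2 of both other libraries for 4 of the 29, *Pfkfb2*, *Pfkfb4*, *Eno3* and *Ldhb*, against 8.04% of all detected genes. It was over 2-fold above both for 0 of the 29, against 1.72% of all detected genes. In sorted bulk cells, fewer cells of a type and less RNA per cell cannot be told apart.

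**Figure D4:**
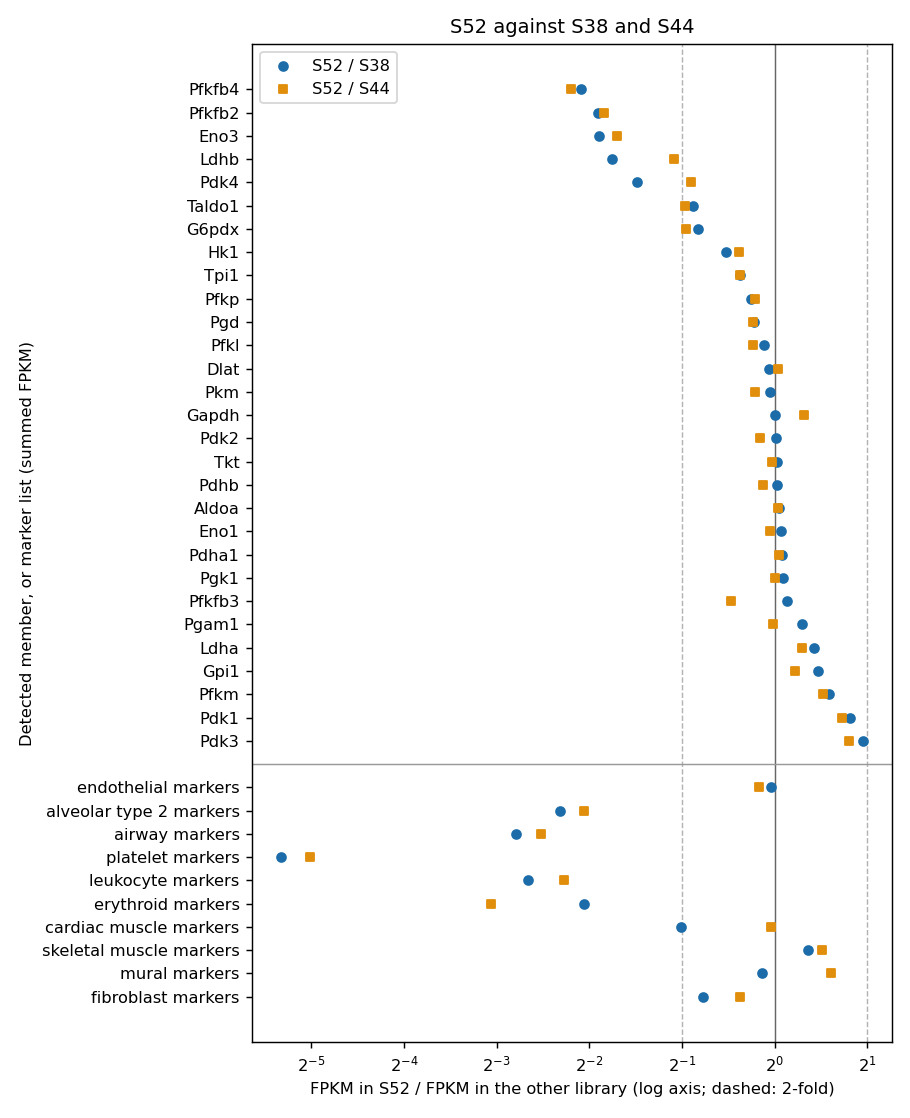
FPKM in S52 divided by FPKM in S38 (circles) and in S44 (squares) on a log axis, for the 29 detected members and, below the line, for the summed FPKM of 10 marker lists. *Pfkfb4*, *Pfkfb2*, *Eno3* and *Ldhb* lie left of the dashed line at 0.5 in both comparisons, *Pdk3* and *Pdk1* lie furthest right, and the platelet markers lie at 0.0250 and 0.0309.

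Markers of other cells moved in the same libraries. The summed level of 6 platelet markers was 1792 FPKM in S38, 1447 in S44 and 44.8 in S52, with *Ppbp* at 1054, 778 and 16.0 FPKM. The sum of 6 alveolar type 2 markers was 3814, 3197 and 767 FPKM, led by *Sftpc* at 3333, 2862 and 658 FPKM. The sum of 5 airway markers was 2769, 2303 and 401 FPKM, led by *Scgb1a1*. All 17 of these genes were lowest in S52. The 8 leukocyte markers summed to 1095, 838 and 173 FPKM, nearly all of it *Lyz2*, with 7 of the 8 lowest in S52. The exception, *Csf3r*, was at 0.302, 0.291 and 0.549 FPKM. *Ptprc*, which encodes CD45, was at 4.30, 2.06 and 0.434 FPKM. *Cd3e*, of T cells, was under 1 FPKM in each library, at 0.206, 0.261 and 0 FPKM. The 6 erythroid markers summed to 394, 790 and 94.6 FPKM, with *Hbb-bs* the highest on average. In S52 nearly all of the sum was *Hba-a1*, at 91.0 FPKM, with *Hbb-bs* at 0.00319 and *Hba-a2* at 0.0165 FPKM. *Slc4a1* was near the floor in each library, at 0.00599, 0.0698 and 0 FPKM.

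Muscle, mural and fibroblast markers were read in the same way. The 6 cardiac muscle markers summed to 67.4, 34.5 and 33.5 FPKM, with *Actc1* the highest on average. Of these, 5 were lowest in S52, where *Myl7* and *Myh6* were listed at 0, while *Actc1* was highest there, at 30.6 FPKM. The 6 skeletal muscle markers summed to 4.58, 4.13 and 5.88 FPKM, *Mylpf* being the highest on average. The 5 mural markers summed to 202, 120 and 184 FPKM, led by *Tagln*, and the 5 fibroblast markers to 75.7, 57.6 and 44.2 FPKM, led by *Dcn*. The part of any of these cells in the lower level of *Pfkfb2*, *Pfkfb4*, *Eno3*, *Ldhb*, *Pdk4*, *Taldo1* and *G6pdx* in S52 was not tested.

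Genes around the set were read from a list of 52. Of these, 33 had a mean of at least 1 FPKM and 16 of at least 10 FPKM, and 6 of the 33 had a ratio above 2 between libraries. Among all genes of the table, 48.3% reached 1 FPKM and 25.7% reached 10 FPKM. Of all detected genes, 20.1% had a ratio above 2, so the counts at 10 FPKM and above 2 were near the background. Among other isozymes of the same steps, 4 of 14 were detected. They were *Adpgk*, an ADP-dependent glucokinase, at 14.0 ± 1.60 FPKM, *Bpgm*, the bisphosphoglycerate mutase, at 18.8 ± 1.85, *H6pd*, the glucose-6-phosphate dehydrogenase of the endoplasmic reticulum, at 7.98 ± 1.54, and *Eno1b* (SD, n = 3 for each). Of the other PDH and pyruvate import genes, 7 of 8 were detected, with *Mpc1* and *Mpc2*, the subunits of the mitochondrial pyruvate carrier, at 43.8 ± 7.04 and 26.9 ± 4.57 FPKM and *Dld* at 27.7 ± 2.43 FPKM (SD, n = 3). All 4 other pentose phosphate genes were detected, led by *Pgls* at 23.4 ± 4.83 and *Rpe* at 13.3 ± 1.79 FPKM (SD, n = 3).

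Gluconeogenesis runs against glycolysis. Of 7 of its genes, 3 were detected, a share near that of all genes. *G6pc3*, the widely expressed glucose-6-phosphatase, was at 17.0 ± 4.73 FPKM and *Pck2*, the mitochondrial phosphoenolpyruvate carboxykinase, at 10.2 ± 1.15 FPKM (SD, n = 3). *Pcx*, the pyruvate carboxylase gene, was at 0.877 FPKM in S38, 1.59 in S44 and 0.585 in S52. *Pck1*, *Fbp1*, *Fbp2* and *G6pc*, the enzymes of liver and kidney glucose output or, for *Fbp2*, of muscle, stayed under 1 FPKM in each library. Of 10 glycogen genes, 9 were detected, against 48.3% of all genes. *Pgm1* was at 36.2 ± 6.56, *Ugp2* at 23.4 ± 1.62 and *Pygb*, the brain-type phosphorylase, at 18.6 ± 4.76 FPKM (SD, n = 3).

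Transporters bring glucose in and lactate out. *Slc2a1*, which encodes the transporter GLUT1, was at 11.2 FPKM in S38, 12.1 in S44 and 16.7 in S52. *Slc2a3*, which encodes GLUT3, a transporter also known from platelets and neurons, was at 57.8, 42.7 and 1.99 FPKM. *Slc2a3* was thus the higher of the pair in S38 and S44 and the lower in S52. The platelet sum was 44.8 FPKM in that library, and its part in the level of *Slc2a3* was not tested. *Slc16a1* and *Slc16a3*, the lactate transporters MCT1 and MCT4, were at 2.47 ± 0.763 and 1.82 ± 0.809 FPKM (SD, n = 3). Of the 7 transport genes, 4 were detected, against 48.3% of all genes.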

How the data were processed

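Sorted adult lung ECs were profiled by poly-A selected, unstranded RNA-seq with paired reads of 51 bases. For each of the 3 libraries the authors deposited an FPKM value for every gene symbol, on mm10. The submitters' processing notes name bcl2fastq 2.17, FastQC 0.11.5, Trimmomatic 0.36, TopHat2 2.1.0 and Cufflinks 2.2.1. The methods of the study describe a separate count pipeline, and the gene annotation behind the FPKM values is not given in the sources used here. All per-sample columns were used.

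Values were used as deposited, without rescaling or a pseudocount, and FPKM are not counts, so no count model was fitted. Means and SDs are over the libraries, and a share is computed in each library and then averaged. The limit for detection was a mean of 1 FPKM. With 3 libraries of 1 group no test was run, and ranges that do not overlap are stated as such. The named genes were all members, the other pathway genes at 10 FPKM or above, other isozymes at 1 FPKM or above and the highest gene of each marker list. *Ptprc*, *Hba-a1*, *Hba-a2*, *Pcx*, *Pdhx*, the markers listed at 0, some genes below 1 FPKM and the lactate transporters were added after their values were seen. So were the 4 genes whose upstream windows are shown. The members and lists were chosen with earlier results of these data known.

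Positions, transcript lengths and shared windows come from GENCODE M21 (GRCm38), which holds 95.7% of the symbols. Depth was estimated from low values of 6069 genes: the step worth 1 fragment was searched for, and with the best step 77.5% to 79.2% of 168 to 338 low values were whole to within 0.15 fragments. This estimate was added after the values were seen. Limits for 0 use 3 fragments and cover counting error only. Upstream windows are RefSeq's on GRCm38.p6, and all 36 members matched by symbol. Python 3.11.15 and pandas 2.3.3 were used.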

Additional observations from a re-analysis of the deposited data

How the results depend on the processing

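Of the alternatives to the 15 summary values, 75 left the value within 1 SD between libraries or, for a count, within 1.5 times, and 10 did not. Many of the 75 could not have moved. Leaving out 1 library of 3 cannot move the mean of a share by 1 SD. Adding other isozymes added no gene for the shares of *Pfkl*, *Pfkfb3*, *Pgam1*, *Pkm* and *Pdk2*. *Bpgm*, at 18.8 FPKM, and *Adpgk*, at 14.0 FPKM, were not among the genes added. The shares of *Pgam1* and *Hk1* were therefore not tested against them. The number of members with a ratio above 2 between libraries was 10 with a minimum mean of 0.1 FPKM, 3 with a minimum of 3 FPKM and 11 with a ratio above 1.5, and it ranged from 1 to 5 when a library was left out, with 1 without S52, *Pgam2*. It was 7 with each library rescaled to the same sum and 6 when rescaled by the median ratio of genes between libraries. The share of all genes was not computed at these other settings. No paired analysis was possible because there is 1 group. The number of members at high level was 6 with a minimum of 100 FPKM in place of 10 FPKM. The median over members was 31.9 FPKM over the detected members only, 13.6 FPKM with each library rescaled to the same sum, and 17.1 to 20.6 FPKM with a library left out. With other isozymes added, the share of *Hk1* was 97.4% and that of *Eno1* was 87.1%. The causes of these moves were not tested, beyond the smaller or larger set of genes or libraries that each alternative uses. With 3 libraries of 1 group, the SDs are imprecise and no condition can be compared. Depth limits *Pklr*, *Hk3*, *Pgam2* and *Eno2*, which rest on few fragments in at least 1 library.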
